A study of Homo sapiens with 2 samples.

Results

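The genes described here encode the respiratory chain, from complex I to ATP synthase (complex V), in a human ovarian carcinoma line grown as tumours in mice. Members were taken by symbol: names starting with NDUFA, NDUFB, NDUFC, NDUFS, NDUFV, UQCR, COX4 to COX8 or ATP5, the genes SDHA, SDHB, SDHC and SDHD, and the 13 protein-coding genes of the mitochondrial genome, without antisense names and names holding a dot. The rule gave 110 of the 36601 genes measured, 97 in the nuclear genome and 13 in the mitochondrial genome. Of the nuclear members, 37 were subunits of complex I, 4 of complex II, 9 of complex III, 18 of complex IV (with NDUFA4, which sits in complex IV despite its name, and NDUFA4L2) and 18 of ATP synthase. The other 11 were 8 complex I assembly factors (NDUFAF genes), the ATP synthase inhibitor ATP5IF1, the supercomplex factor COX7A2L and the non-coding NDUFA6-DT. The rule itself uses symbols and no level.

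The cells were OVCAR5, an established ovarian carcinoma line that carried an IFNy-sensing reporter and CFP, grown in NSG-B2m-/- mice, an immunodeficient strain without B2m, and sorted as CFP+ bystander tumour cells. The tumours were injected with cytokine, digested, marked with hashtag antibodies and pooled, and the pool was loaded as 1 droplet library, with its hashtags read in another. The pool description lists 13 tumours. At 6 h there were 3 tumours given 10 ng/ml TNFa, 2 given that dose together with 100 ng/ml IFNg, and 2 left unexposed. At 24 h there were 2 given 100 ng/ml IFNg beside 2 unexposed, and at 48 h 1 of each. The treatment fields of the 2 libraries name a single condition each, which is at odds with that list.

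Each cell carried mostly a pair of hashtags, and 13 pairs occurred, written here as HTO2+HTO5 and so on. The sources used here do not say which pair is which tumour or treatment, so pairs are described and exposed tumours are not compared with unexposed ones. Cells of a pair are not replicates, and 1 library gives no test between pairs. Intervals below are exact 95% Poisson intervals, or exact conditional intervals for a ratio of counts. They cover counting error only, and not the choice of the highest and the lowest of 13 pairs.

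The respiratory chain passes electrons from NADH (complex I) and succinate (complex II) through complex III to oxygen at complex IV, and ATP synthase uses the proton gradient so built. Complexes I, III, IV and V combine subunits made in the cytosol from nuclear genes with a few core subunits translated inside the mitochondrion from its own genome, while complex II is wholly nuclear. Mitochondrial transcripts are cut from long polycistronic RNAs that cover most of each strand. In single-cell work the mitochondrial share of a cell's RNA is also read as a quality measure, because it rises when cytosolic RNA is lost.

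Of 9083 barcodes, 8410 had 500 genes or more and 7071 of these had a hashtag pair. Those 7071 cells held 51825191 gene UMIs (counted molecules), with a median of 6540 per cell and 264 to 1184 cells per pair. Epithelial markers checked the label: 83.4% of cells had 3 or more of 10 epithelial markers, and no list of fibroblast, macrophage, endothelial, T cell, muscle or adipocyte markers reached 3 markers in more than 0.382% of cells. The genes of these lists at 0 UMIs were THY1, FCGR3A, TEK, CD3E, CD2, CD3G, GZMA, MYH7 and ADIPOQ, and the others had UMIs. Of the 10 T cell genes 6 had UMIs, and of the 4 adipocyte genes 3 did. The adipocyte list summed to 39.2 to 293 CPM over pairs, and the T cell list to 2.41 to 18.2. Pairs differed in cytokine-response genes: the sum of 12 IFNg-response genes spanned 532 to 24518 CPM (UMIs per 1000000) over pairs, and that of 12 NF-kB-response genes spanned 677 to 11106.

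Levels are in CPM, UMIs per 1000000. A nuclear level is CPM of the gene UMIs left after the 13 mitochondrial genes are taken out, so that it does not fall only because the mitochondrial share rises. A mitochondrial level is CPM of all gene UMIs, or a percent of them. The assay counts 1 end of each molecule, so levels of different genes are not divided by length; differences between genes in capture were not tested.

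The nuclear members together made up 22976 CPM (95% interval 22929 to 23023) over all cells. Complex I contributed 8187, complex IV 5590, complex V 5783, complex III 2268 and complex II 303 CPM. Per subunit with any reads the spread was wide, and 82 of the 97 members reached 1000 UMIs, the minimum used below for ratios. Members at 0 UMIs numbered 4, and 11 had at least 1 but fewer than 1000.

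In complex I the members with the most UMIs were NDUFA13 (792 CPM; also known as GRIM-19), NDUFV2 (501; a core iron-sulphur subunit of the NADH-oxidising arm) and NDUFS6 (456). Among other core subunits, NDUFS8 was at 434 and NDUFS1 at 88.4 CPM. The 4 genes of complex II, succinate dehydrogenase, were close together, from 65.2 (SDHB) to 90.3 (SDHA, the flavin-bearing subunit), with SDHC at 81.1 and SDHD at 66.5. In complex III the leading members were UQCRB (452), UQCRH (439) and UQCRQ (393), small subunits around the core. The core proteins UQCRC1 and UQCRC2 stood at 131 and 85.1, and the Rieske iron-sulphur protein UQCRFS1 at 117. In complex IV they were NDUFA4 (929, the highest nuclear member), COX4I1 (686) and COX5B (668). In ATP synthase they were ATP5F1E (864, the epsilon subunit), ATP5MC3 (689, which encodes the membrane ring's c subunit) and ATP5F1D (515). The other c subunit genes, ATP5MC1 and ATP5MC2, were at 500.4 and 453 CPM, while the catalytic ATP5F1A and ATP5F1B were at 106 and 271.

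Complex IV has alternative subunits for particular tissues or conditions, and the common form of each was the one measured here. COX4I2, COX6A2 (heart and muscle), COX7A1 (heart and muscle) and COX7B2 had 0 UMIs among 39823237 non-mitochondrial UMIs, which allows up to 0.0753 CPM each. COX8C had 4 UMIs in all and COX6B2 (testis) had 10. Their common counterparts COX4I1, COX6A1, COX7A2, COX7B, COX8A and COX6B1 stood at 686, 528, 395, 233, 493 and 343 CPM. NDUFA4L2, a relative of NDUFA4 known to be induced by hypoxia, had 96 UMIs, or 2.41 CPM, against 929 for NDUFA4. UQCRHL (204 UMIs) and ATP5MGL (17 UMIs) are near copies of UQCRH and ATP5MG, and reads of such pairs can be split between them, so all 4 values are uncertain.

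The 13 mitochondrial genes took 23.2% of all gene UMIs. MT-ATP6 (39202 CPM), MT-CO3 (38869), MT-CO2 (38577) and MT-CO1 (32163) led, followed by MT-CYB (25069) and MT-ND4 (21254). MT-ND3 (12282), MT-ND1 (11382), MT-ND2 (6769) and MT-ND5 (5086), all complex I subunits, were lower. The lowest were MT-ND4L (466), MT-ND6 (268) and MT-ATP8 (198). By complex, the 3 complex IV genes made up 47.3% of the mitochondrial UMIs, the 7 complex I genes 24.8%, the 2 ATP synthase genes 17.0% and MT-CYB, the only mitochondrial gene of complex III, 10.8%. MT-ATP8 overlaps MT-ATP6 (M, 8366 to 8572 and 8527 to 9207, GRCh38) and MT-ND4L overlaps MT-ND4 (10470 to 10766 and 10760 to 12137). Each overlapping couple is carried on 1 shared transcript, so the split of UMIs within it reflects where reads fell and is uncertain. MT-ND6 (14149 to 14673) is the only protein gene on the other strand, and lies beside MT-ND5 (12337 to 14148).

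The nuclear level differed modestly between pairs. It was 19810 CPM (19556 to 20067) in HTO4+HTO9, the lowest, and 24955 (24783 to 25128) in HTO4+HTO7, the highest, with a median pair of 23094. That is a ratio of 1.26 (1.24 to 1.28). Going up from the lowest, the other pairs were HTO4+HTO8 (20771), HTO2+HTO9 (21315), HTO2+HTO8 (21427), HTO2+HTO6 (21847), HTO2+HTO7 (23066), HTO3+HTO6 (23094), HTO3+HTO5 (23446), HTO3+HTO9 (23479), HTO2+HTO5 (23809), HTO3+HTO7 (24545) and HTO4+HTO6 (24749). Neighbours whose counting intervals overlapped included HTO2+HTO9 with HTO2+HTO8, HTO2+HTO7 with HTO3+HTO6, HTO3+HTO5 with HTO3+HTO9, and HTO4+HTO6 with both HTO3+HTO7 and HTO4+HTO7. In cells under 20% mitochondrial share the lowest pair was again HTO4+HTO9 (21071) and the highest was HTO3+HTO7 (27209).

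The 4 lowest pairs were also the 4 highest for the IFNg-response list: HTO2+HTO8 at 24518, HTO2+HTO9 at 20611, HTO4+HTO9 at 10732 and HTO4+HTO8 at 9130 CPM, against 2231 or less in the other 9 pairs. UMIs of induced genes enter the same total as the members, so part of this order depends on scaling. Scaled by the median ratio over genes, a choice made after the data were seen, HTO2+HTO8 stood at 27709 and HTO2+HTO9 at 27026, in the range of the other pairs, while HTO4+HTO8 (24834) and HTO4+HTO9 (24279) stayed below the 25966 of HTO3+HTO6, the next pair up. The highest to lowest ratio was then 1.16. Seen per gene, the median nuclear member of HTO4+HTO9 was below the median pair by a log2 difference of -0.24, against -0.05 for the 5545 other genes with 1000 UMIs or more. For HTO4+HTO8 the figures were -0.13 and -0.01. For HTO2+HTO8 members and other genes were alike, at -0.13 and -0.13, and for HTO2+HTO9 at -0.11 and -0.11. HTO4+HTO8 and HTO4+HTO9 were also among the shallow pairs, with medians of 5238 and 5184 UMIs per cell against 6929 in the median pair. MALAT1, a nuclear-retained RNA, was at 61074 and 61494 CPM in them against 49628 in the median pair. It was lowest in HTO2+HTO8 (40132), also a pair of low nuclear level, and highest in HTO3+HTO6 (67833). The parts of depth and RNA quality in the nuclear level were not tested. HTO3+HTO6, with a median of 5265 UMIs, was the median pair before median-ratio scaling and the third lowest after it.

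**Figure D1:**
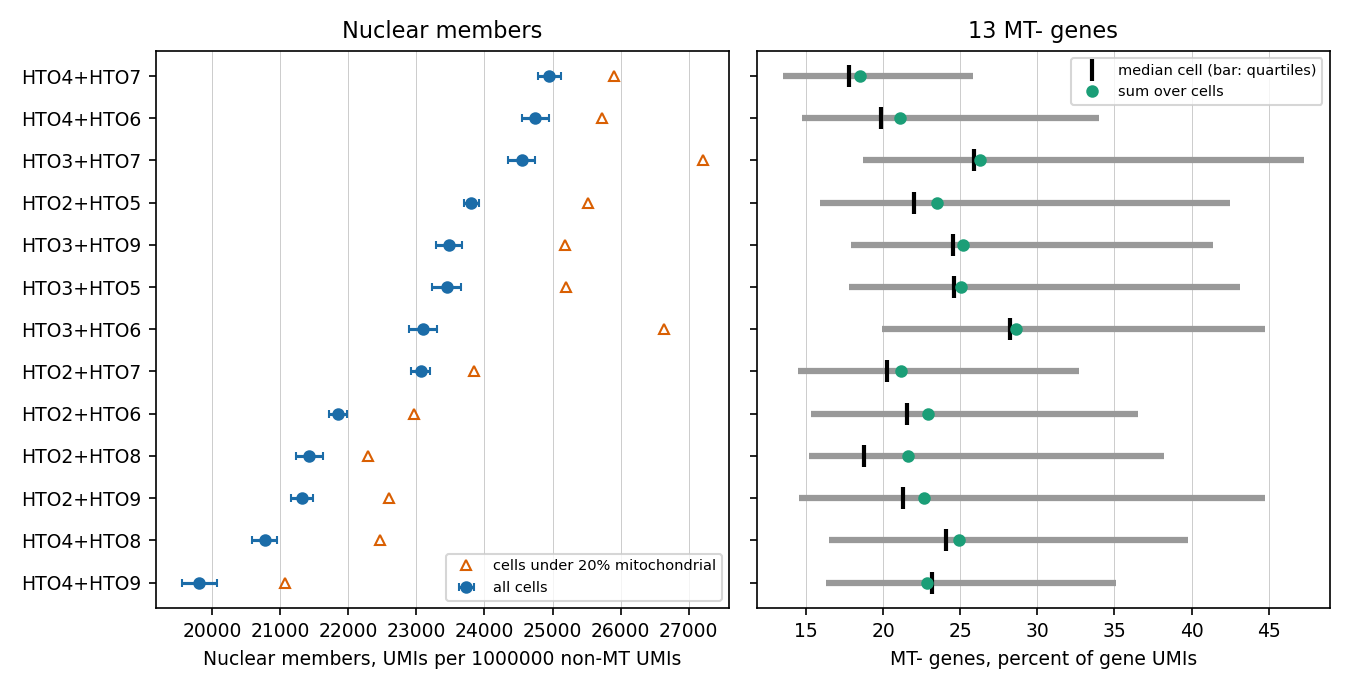
Left: summed nuclear respiratory chain level of each hashtag pair in CPM of non-mitochondrial UMIs, with 95% Poisson intervals (circles), and the same in cells under 20% mitochondrial share (triangles). Right: the 13 mitochondrial genes as a percent of gene UMIs, summed over cells (circles), with the median cell (tick) and quartiles (bar). Nuclear levels run from 19810 (HTO4+HTO9) to 24955 (HTO4+HTO7), and mitochondrial shares from 18.5% (HTO4+HTO7) to 28.6% (HTO3+HTO6), in a different order of pairs.

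Complexes I, III, IV and V shared this order at its ends. HTO4+HTO9 was the lowest pair for each of them, at 7173, 1838, 4948 and 4829 CPM, and the highest was HTO4+HTO7 (8822, 2501 and 6022 for complexes I, III and IV) or HTO4+HTO6 (6320 for complex V). The ratios of highest to lowest were 1.23 for complex I, 1.36 for complex III, 1.22 for complex IV and 1.31 for complex V. Complex II differed at the low end: HTO4+HTO9 had its highest level (338, interval 305 to 373). That interval overlaps those of all other pairs except HTO2+HTO6, such as HTO3+HTO9 (332, 309 to 356) and HTO2+HTO7 (295, 280 to 311). HTO2+HTO6 had its lowest (267, interval 253 to 282). SDHA (chr5:218241-256700, GRCh38) carried this, with 132 CPM in HTO4+HTO9 against 76.7 to 107 in the other 12 pairs. SDHC was highest in the same pair (96.4), while SDHD was lowest there (52.9) and SDHB stood at 56.3, near its minimum of 56.0.

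HTO4+HTO9 was the lowest pair for 40 of the 82 nuclear members and the highest for 5, against 18.3% and 9.6% of all 5627 nuclear genes with 1000 UMIs or more. HTO4+HTO7 was the highest for 21 and the lowest for none, against 11.4% and 3.57% of those genes. HTO4+HTO9 was the smallest pair, with 264 cells and 1518881 gene UMIs, and a sparser pair reaches extremes more easily. The nuclear members differed less between pairs than most genes. Of the 82, 26 (31.7%) had a ratio of 1.5 or more between their highest and lowest pair, against 71.2% of all 5627 genes. None reached a ratio of 2, against 27.9% of those genes. Members are abundant, and ratios shrink with counts. Among genes with 10000 to 100000 UMIs, 15.4% of 39 members and 46.3% of 540 other genes reached 1.5. Among those with 3000 to 10000 UMIs, 43.2% of 37 members and 60.0% of 1653 others did. With median-ratio scaling 17 members reached 1.5, against 65.2% of genes, and 1, NDUFA9 at 2.07, reached 2, against 25.2%.

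**Figure D2:**
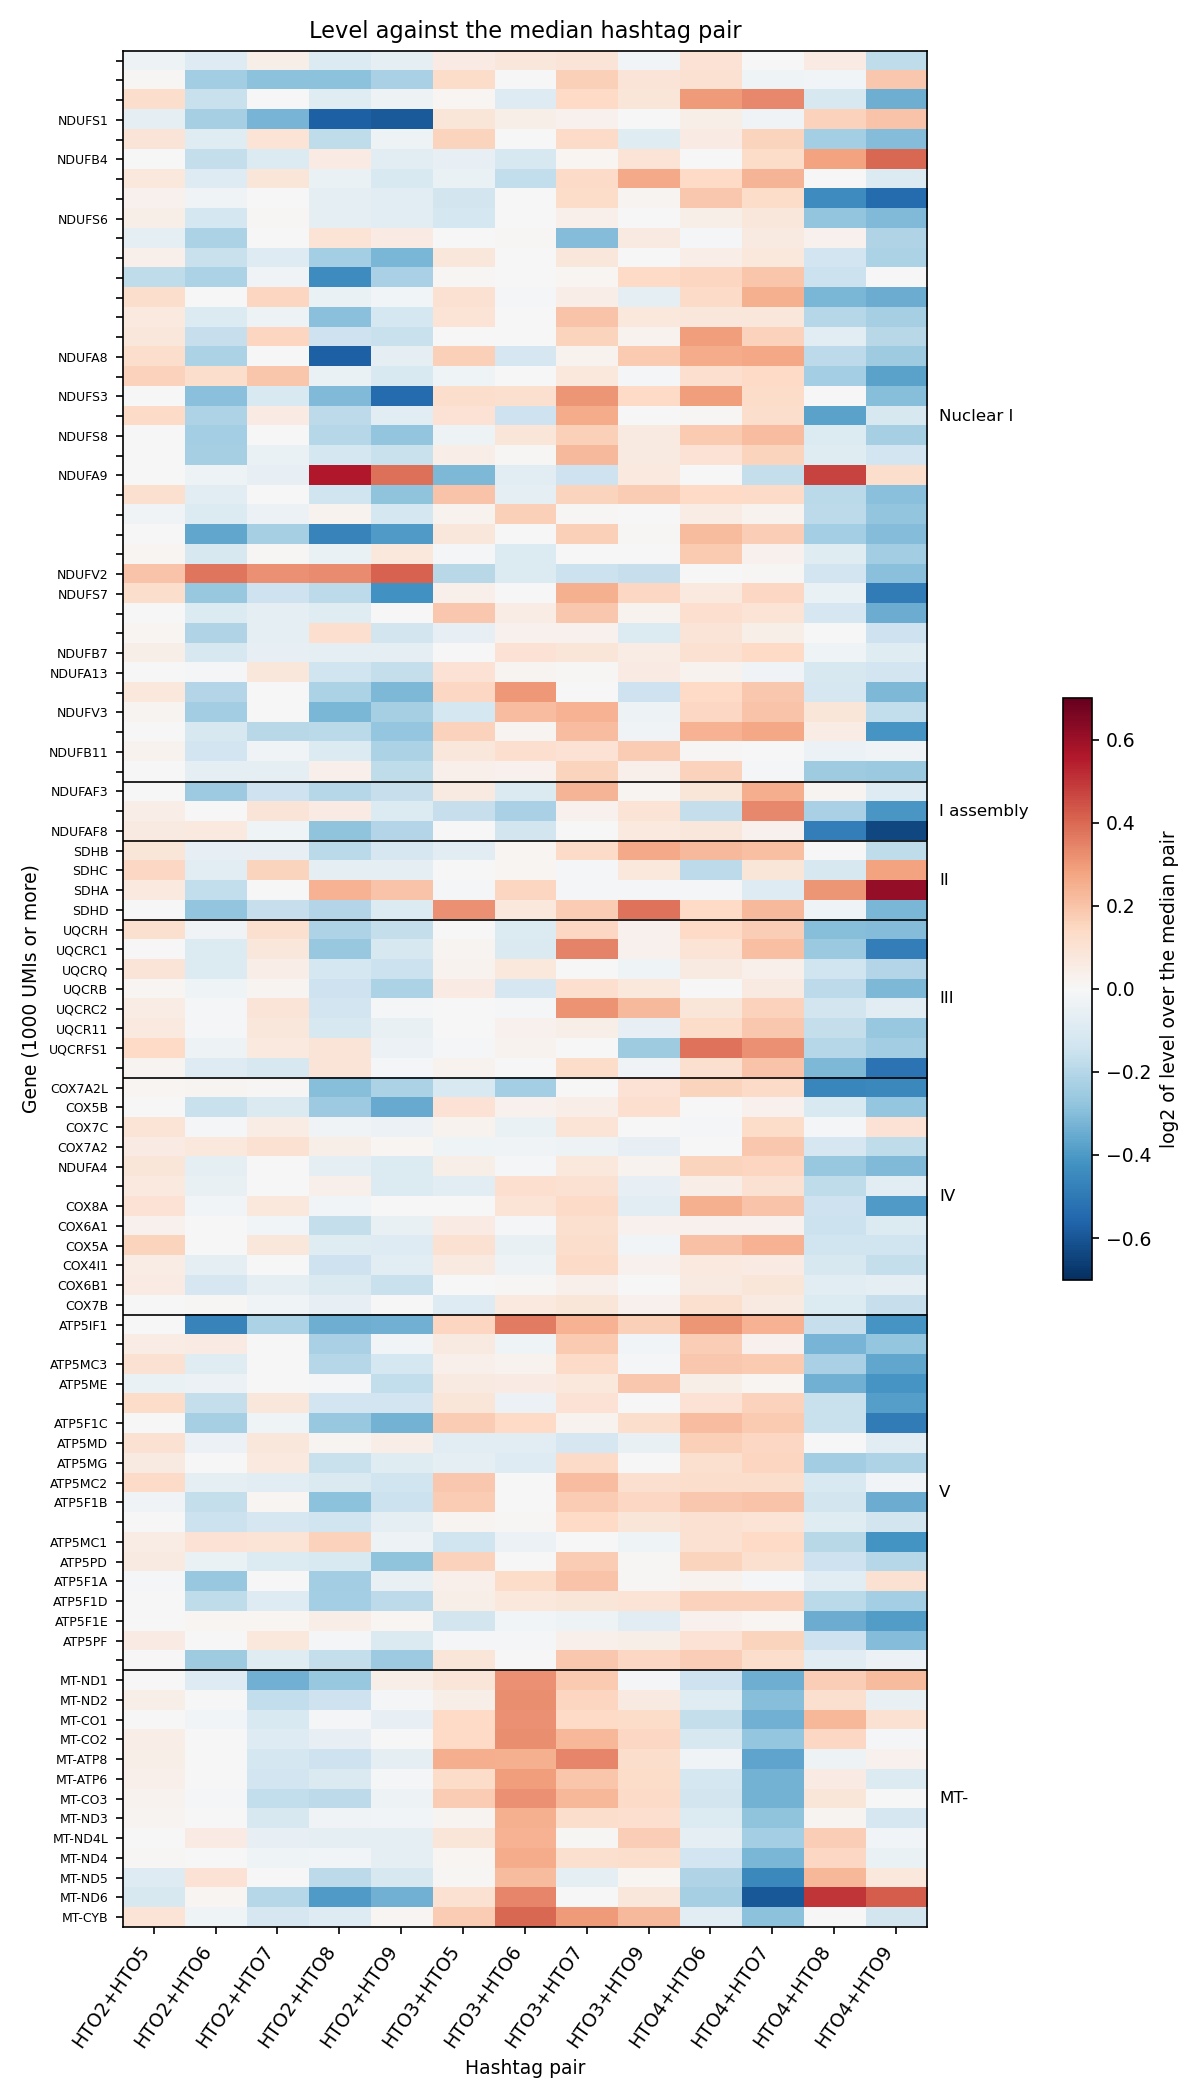
Level of each member with 1000 UMIs or more (one line per gene, in blocks by complex, mitochondrial genes last, with the genes named in the text labelled) in each of the 13 hashtag pairs, as log2 over the median pair; red is above and blue below. The HTO4+HTO8 and HTO4+HTO9 columns are mostly blue over the nuclear blocks, while the HTO4+HTO7 column is red over nuclear genes and blue over all 13 mitochondrial genes; NDUFV2 is red in the 5 HTO2 pairs.

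The 5 members with the largest ratios were NDUFA9, NDUFS3, NDUFA8, UQCRC1 and ATP5IF1, and they did not all vary together. NDUFS3 and ATP5IF1 were both higher in the HTO3 pairs, HTO4+HTO6 and HTO4+HTO7 than in any other pair, while NDUFA9 had another order. NDUFA9, a complex I subunit of the arm near the membrane, was lowest in HTO3+HTO5 (57.2 CPM) and highest in HTO2+HTO8 (105), a ratio of 1.83 (1.46 to 2.31). Its next highest pairs were HTO4+HTO8 (98.8) and HTO2+HTO9 (93.0), and the remaining 10 pairs lay at 77.6 or below. With HTO4+HTO9 at 77.6, the 4 pairs highest for the IFNg-response list were the 4 highest for NDUFA9, while the summed chain was lowest there. The fourth place was within counting error, with 91 UMIs in HTO4+HTO9 and the next pair, HTO3+HTO9, at 74.8 CPM (ratio 1.04, 0.797 to 1.35). The same 4 pairs were the highest for 2 of the 82 members, NDUFA9 and SDHA, against 4.51% of genes, so the share of members with this order is not above the background. NDUFS3, a core subunit, ran from 97.4 in HTO2+HTO9 to 175 in HTO3+HTO7 (ratio 1.80, 1.55 to 2.09). NDUFA8 ran from 62.1 in HTO2+HTO8 to 111 in HTO4+HTO7 (1.79, 1.46 to 2.20). UQCRC1 ran from 93.8 in HTO4+HTO9 to 167 in HTO3+HTO7 (1.78, 1.43 to 2.22). The 5 smallest ratios were those of COX7C (1.13), COX6B1 (1.18), NDUFB7 (1.19), NDUFA13 (1.20) and COX7B (1.21). COX7C, a small complex IV subunit, lay between 458 and 517 CPM in all 13 pairs, and was not low in HTO4+HTO9 (508).

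ATP5IF1, which inhibits ATP hydrolysis by ATP synthase when the gradient is lost, was lowest in HTO2+HTO6 (189) and highest in HTO3+HTO6 (336), a ratio of 1.78 (1.61 to 1.96). It was at 261 or below in all 5 HTO2 pairs, in HTO4+HTO8 (234) and in HTO4+HTO9 (196), and at 291 or above in the 4 HTO3 pairs, HTO4+HTO6 (324) and HTO4+HTO7 (310). The subunits it acts on varied less: ATP5F1B spanned 213 to 312 and ATP5F1A 89.8 to 124 CPM.

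Some members followed a hashtag, whichever hashtag it was paired with. NDUFV2 (chr18:9102630-9134345, GRCh38) was at 524 to 606 CPM in the 5 pairs with HTO2 and at 373 to 458 in the other 8, with no overlap. The lowest HTO2 pair was at 1.15 times (1.08 to 1.22) the level of the highest other pair. NDUFS1 (chr2:206114817-206159603), a subunit of the same NADH-oxidising arm, did the reverse, with 63.7 to 91.6 in HTO2 pairs and 94.1 to 110.04 elsewhere, though the gap between the nearest pairs was within counting error (1.03, 0.893 to 1.18). These were 1 of 82 members above and 1 of 82 below, where 3.25% and 3.06% of the 5627 genes separated in the same way, so the share of members that follow HTO2 is not above the background. For HTO3, 3 of 82 members (COX5B, ATP5ME and NDUFB11) were higher in all 4 of its pairs, a share near the 3.07% of genes. In each of the 3 the gap between nearest pairs was within counting error, and ATP5ME overlapped after median-ratio scaling. For HTO8, 1 of 82 members, NDUFA9, was higher in both of its pairs, against 0.658% of genes. COX6A1 and UQCRC2, 2 of 82, were lower, a share near the 2.47% of genes. These 3 gaps were within counting error, and COX6A1 and UQCRC2 overlapped after median-ratio scaling. No member followed HTO4, against 0.409% of genes above and 0.16% below, and none followed HTO5, HTO6, HTO7 or HTO9, against 0.32% of genes or fewer on either side. The 5 HTO2 pairs were also the 5 highest for the NF-kB-response list, at 2738 (HTO2+HTO5) to 11106 CPM (HTO2+HTO6). The other 8 pairs were at 1168 or less, and a link of this order to NDUFV2 or NDUFS1 was not tested.

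C15orf48, which encodes a small mitochondrial protein known to take the place of NDUFA4 in complex IV in inflamed cells, was not a member by symbol but bears on NDUFA4. It had 138 CPM in HTO2+HTO6, 119 in HTO2+HTO7, 80.1 in HTO2+HTO9, 57.4 in HTO2+HTO8 and 42.2 in HTO2+HTO5, against 3.11 to 16.7 in the 8 pairs without HTO2. NDUFA4 (chr7:10931951-10940256) spanned 747 in HTO4+HTO9 to 1031 in HTO4+HTO6, a ratio of 1.38 (1.28 to 1.49). In the HTO2 pairs it lay between 868 and 982, and the pairs highest in C15orf48 were at 884 and 927, so its RNA was not lowest where C15orf48 was highest. Across cells under 20% mitochondrial share, thinned to 2000 UMIs, NDUFA4 stood at 963 CPM in the 2715 cells with 0 UMIs of C15orf48, at 1015 in 147 cells with 1, and at 937 (754 to 1152) in 55 cells with 2 or more. These intervals overlap.

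Electron carriers and other genes of the pathway outside the rule were described in the same way. CYC1, the cytochrome c1 subunit of complex III, followed the members, from 285 in HTO4+HTO9 to 430 CPM in HTO3+HTO7. CYCS, cytochrome c, was also lowest in HTO4+HTO9 (276) but highest in HTO2+HTO6 (431). Of 37 further assembly and chain genes, 23 had 1000 UMIs or more, and 17 of these differed 1.5-fold or more between pairs, against 26 of the 82 members and 71.2% of all genes. For mitochondrial ribosomal proteins it was 38 of 74, for genes of mitochondrial transcription and RNA handling 6 of 15, and for glycolysis 10 of 12. A ratio of 2 was reached by 3 of the 23 further chain genes, 3 of the 74, 2 of the 15 and 4 of the 12, against 0 members and 27.9% of all genes. These lists differ in abundance, which moves such counts. Summed, the mitochondrial ribosome ran from 7617 in HTO4+HTO9 to 9951 in HTO4+HTO7, the same ends as the nuclear chain, while glycolysis ran from 5842 in HTO2+HTO9 to 8224 in HTO2+HTO7.

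The mitochondrial genes ordered the pairs differently. Their share of gene UMIs was lowest in HTO4+HTO7 (18.5%) and highest in HTO3+HTO6 (28.6%), a ratio of 1.55, with 22.9% in the median pair. HTO4+HTO7 was the lowest pair for 13 of 13 mitochondrial genes, against 3.57% of the 5627 nuclear genes. HTO3+HTO6 was the highest for 10, with no background share counted for that pair. The 13 genes are cut from shared transcripts, so they are not 13 separate results. The 4 HTO3 pairs held the 4 highest shares, at 25.1% to 28.6%, followed by HTO4+HTO8 at 24.9%. MT-ATP6, MT-CO3 and MT-CYB were higher in all 4 HTO3 pairs than in the other 9 by a gap beyond counting error (MT-CYB 27614 to 32210 against 20023 to 26111 CPM). MT-ATP8 and MT-ND3 were also higher in all 4, by a gap within counting error. Together these were 5 of the 13 genes, against 3.07% of the 5627 nuclear genes. Of the 13 genes, 10 (76.9%) had a ratio of 1.5 or more between pairs, near the 71.2% of the 5627 nuclear genes. A ratio over 2 was reached by 1, MT-ND6 (2.14, 1.95 to 2.34), against 27.9% of those genes. MT-ND6 ran from 183 in HTO4+HTO7 to 391 CPM in HTO4+HTO8. The shares of nuclear genes are on the scale without mitochondrial UMIs.

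These shares are sums over cells of unequal state. Cells of 50% mitochondrial share or more made up 5.68% of HTO4+HTO9, 8.91% of HTO4+HTO7 and 18.1% of HTO3+HTO6, up to 20.9% in HTO3+HTO7. Cells under 20% made up 60.4% of HTO4+HTO7 and 25.2% of HTO3+HTO6. Among cells of at most 20% the ratio between the highest and lowest pair was 1.10; a limit on the share narrows this ratio by its own construction. The ratio of nuclear to mitochondrial UMIs was 0.110 in HTO4+HTO7 and 0.0576 in HTO3+HTO6.

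Within the mitochondrial UMIs, the share of a gene differed between the highest and lowest pair by a ratio of 1.03 (MT-CO2) to 1.68 (MT-ND6). MT-CO2 took 16.4% to 16.9% in every pair and MT-ATP6 16.0% to 17.1%. MT-CYB took 9.79% in HTO4+HTO8 and in HTO4+HTO9 against 10.4% to 11.4% in the others, a ratio of 1.16, and MT-ATP8, with few UMIs, had a ratio of 1.23. MT-ND1 took 4.37% in HTO2+HTO7 and 5.96% in HTO4+HTO9, a ratio of 1.36, and MT-ND5 1.89% in HTO3+HTO7 and 2.46% in HTO2+HTO7, a ratio of 1.30. MT-ND6 took 0.0969% in HTO2+HTO9 and 0.162% in HTO4+HTO9, with 0.157% in HTO4+HTO8 and at most 0.122% in the other 11 pairs. By the mitochondrial share of the cell, its own share had no single direction: it was 0.149% in cells under 10%, 0.0935% at 10% to 20%, 0.101% at 20% to 30%, 0.144% at 30% to 50% and 0.137% at 50% or more.

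Across cells, the nuclear members were lower where the mitochondrial share was high, although the scale leaves mitochondrial UMIs out. The nuclear level was 24524 CPM in 446 cells under 10% mitochondrial share, 24368 in 2548 cells at 10% to 20%, 23728 in 1662 cells at 20% to 30%, 16552 in 1300 cells at 30% to 50% and 11299 in 1115 cells at 50% or more. The level at 20% to 30% was slightly below that under 10%, by more than counting error, and the larger drop lay beyond 30%. Between the same ranges complexes I and IV differed within their intervals, while complex II went from 336 (317 to 355) to 300 (289 to 311), complex III from 2482 to 2277 and complex V from 6314 to 5931 CPM, beyond theirs. From 10% to 20% to 20% to 30%, complex I also went from 8633 to 8532 and complex IV from 5947 to 5820 CPM, beyond their intervals. The range under 10% held only 446 cells and had wider intervals. Between cells at 50% or more and cells under 20% the ratio was 0.463 (0.457 to 0.470). The direction was the same in 13 of 13 pairs, with ratios of 0.409 (HTO4+HTO6) to 0.510 (HTO2+HTO9).

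**Figure D3:**
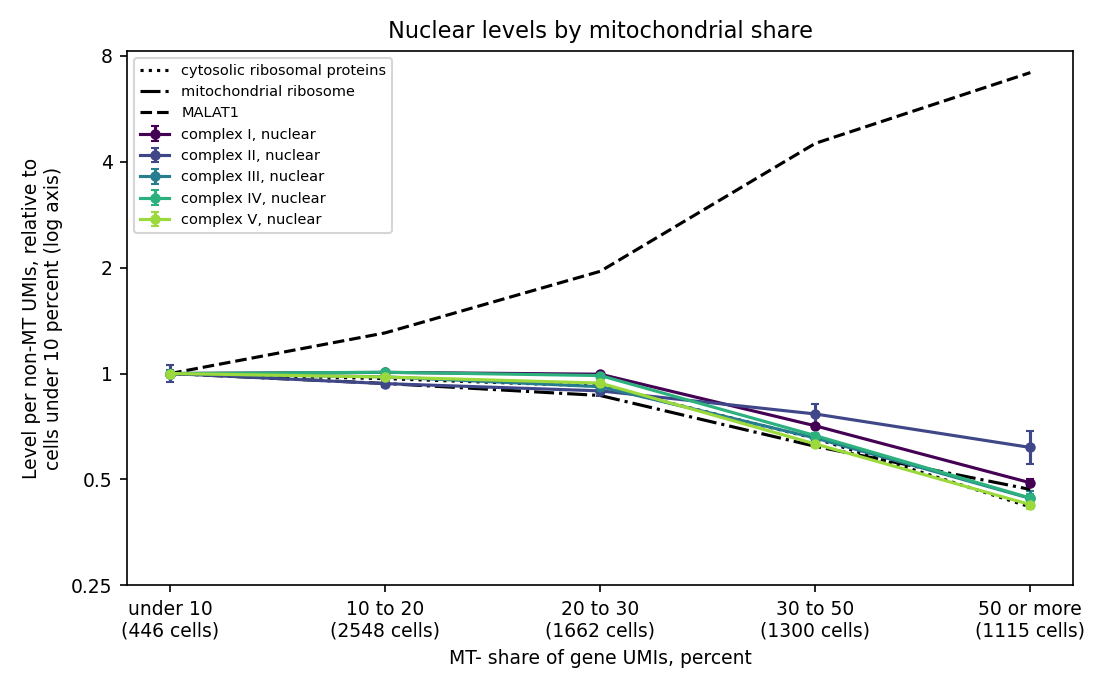
Nuclear members of each complex (circles, with 95% Poisson intervals), cytosolic ribosomal proteins, the mitochondrial ribosome and MALAT1, by range of mitochondrial share, each relative to its level in cells under 10% (log axis). Up to 30% complexes I and IV stay within their intervals and complexes II, III and V are slightly lower; beyond 30% all are lower, complex II least, as are both groups of ribosomal proteins, while MALAT1 is higher.

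The high-share cells were small in cytosolic RNA. Their median was 1420 non-mitochondrial UMIs, against 7377 in cells under 20%, with 840 and 2842 genes. Mitochondrial UMIs were not fewer: the median was 2157 against 1265 per cell. The median cell had 15 UMIs of nuclear members against 172. Other abundant cytosolic messengers were lower in the same cells. Cytosolic ribosomal proteins stood at a ratio of 0.430, mitochondrial ribosomal proteins at 0.495 and glycolysis genes at 0.387. The nuclear-retained RNAs were higher, MALAT1 by 5.70-fold and NEAT1 by 4.34-fold, and genes of mitochondrial transcription and RNA handling stood at 0.873. Epithelial markers reached 3 per cell in 48.9% of high-share cells and 95.4% of cells under 20%, at these unequal depths. RNA quality therefore moved with the result, and its part in it was not tested. MALAT1 alone filled 184710 CPM in high-share cells against 32430. With MALAT1 and NEAT1 also taken out of the total, a choice made after the data were seen, the nuclear ratio was 0.555.

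Of the 82 nuclear members, 74 were lower by 1.5-fold or more in high-share cells, against 35.3% of the 5627 genes, and 0 were higher, against 19.9%. At like abundance the members still stood below other genes. For 10000 to 100000 UMIs the median ratio was 0.436 for members and 0.512 for others, and for 3000 to 10000 UMIs 0.488 and 0.740. By complex the summed ratios were 0.432 for complex V, 0.440 for complex IV, 0.450 for complex III, 0.486 for complex I and 0.652 (0.584 to 0.725) for complex II. All 17 measured members of complex V and all 11 of complex IV passed 1.5-fold, as did 33 of 37 in complex I, 7 of 8 in complex III and 2 of 4 in complex II.

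The lowest ratios were those of NDUFA8 (ratio 0.284, interval 0.210 to 0.377), COX5A (0.341), ATP5MC2 (0.353), NDUFAF3 (0.363) and COX7A2L (0.365). Members near to no difference included NDUFAF8 (0.965, 0.842 to 1.10), SDHA (0.949, 0.796 to 1.12), NDUFS1 (0.948, 0.794 to 1.12) and NDUFV3 (0.860, 0.691 to 1.06). SDHA had 143 UMIs in high-share cells and NDUFS1 141, so these ratios are less precise than those of the abundant members. Median-ratio scaling shifts all genes by a log2 value of 0.20 in this comparison and puts NDUFAF8, SDHA and NDUFS1 just above 1, at 1.11, 1.09 and 1.09. NDUFA4, the most abundant, stood at 0.419 (0.388 to 0.452) and NDUFA13 at 0.596 (0.555 to 0.639). Partners within a complex therefore had unequal ratios, NDUFS1 at 0.948 beside NDUFV2 at 0.395 in the same arm of complex I, and SDHA at 0.949 beside SDHB at 0.404 in succinate dehydrogenase.

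**Figure D4:**
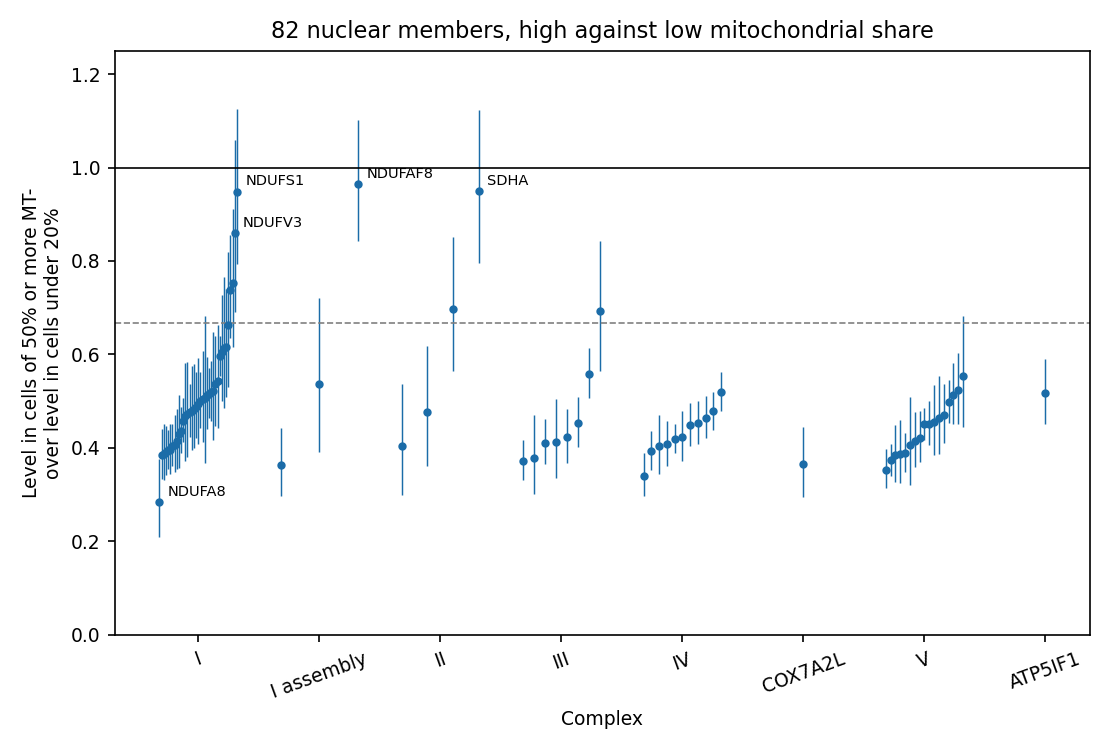
Ratio of the level in cells of 50% mitochondrial share or more to that in cells under 20%, for the 82 nuclear members with 1000 UMIs or more, sorted within each complex, with 95% intervals. The solid line is 1 and the dashed line a level 1.5-fold lower. Most members lie between 0.3 and 0.6, and NDUFS1, NDUFV3, NDUFAF8 and SDHA have intervals that include 1.

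The relation was also described cell by cell. With each cell thinned to 2000 UMIs (6846 cells; 225 were too shallow), the nuclear level and the mitochondrial share had a Pearson r of -0.606 and a Spearman rho of -0.556. Within pairs r ran from -0.686 (HTO2+HTO5) to -0.483 (HTO4+HTO9). In the 2917 cells under 20% r was 0.0415, from -0.152 to 0.256 within pairs, and negative in 6 of 13. Cells share 1 library and its free RNA, so these are descriptions with no p-value. Counts are sparse after thinning, and a correlation this near 0 is not read as a relation in either direction.

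**Figure D5:**
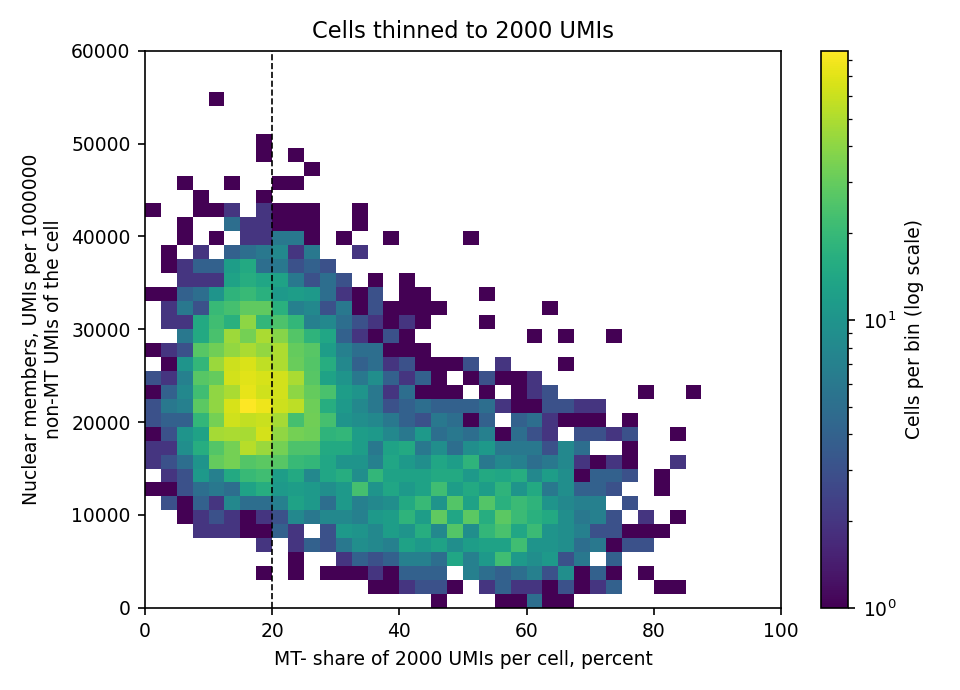
Cells thinned to 2000 UMIs, by mitochondrial share (horizontal axis) and nuclear respiratory chain level in CPM of non-mitochondrial UMIs (vertical axis); colour is the number of cells per bin on a log scale. Left of the dashed line at 20% the cloud is round (r = 0.0415); to the right it descends (r = -0.606 over all cells).

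Among the cells under 20% the complexes correlated weakly with one another. The correlation over cells was 0.329 between complexes I and IV, 0.330 between I and V, 0.295 between IV and V and 0.226 between I and III. Complex II, with few UMIs per cell, had correlations of 0.0096 to 0.0618 with the other complexes. The nuclear members as a whole correlated at 0.430 with the mitochondrial ribosome, 0.197 with cytosolic ribosomal proteins and -0.454 with MALAT1 plus NEAT1. These share each cell's denominator.

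The nuclear members are spread over many chromosomes, and promoter sequence is 1 feature that the rule did not use. Nuclear respiratory factor 1 (NRF1) and the ETS-family factor GABP (also called NRF2) are known regulators of respiratory chain genes. RefSeq promoters (GRCh38.p14) were found for 79 of the 97 nuclear members, and the 250 bases before the gene start were searched on both strands. The NRF1 core motif CGCATGCG was present in 9 of 79 (11.4%), against 2.49% of 15843 protein-coding promoters. The ETS motif CCGGAAGT was present in 10 of 79 (12.7%), against 5.09%. The YY1 motif AAGATGGC was present in 2 of 79 (2.53%), against 1.39%, and TATAAA in 7 of 79 (8.86%), against 9.23%. The NRF1 and ETS motifs share no overlapping site in these members. A match is of letters only, and no binding was measured here. The 8 matches nearest to a gene start are shown, with both matches of SDHD, the only member with the 2 motifs, because both motifs were found at a higher share of member promoters than of all promoters; most member promoters held neither. Each is 30 bases, 5′ to 3′ on the gene's strand, with the motif or its reverse complement in capitals.
ATP5F1C NRF1, chr10:7788145-7788174, plus strand: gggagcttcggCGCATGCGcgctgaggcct
ATP5MC2 NRF1, chr12:53676106-53676135, minus strand: ggcccgggtcaCGCATGCGctgagccttcc
NDUFS6 NRF1, chr5:1801351-1801380, plus strand: cagaagccgtgCGCATGCGttagcgctaag
SDHD NRF1, chr11:112086753-112086782, plus strand: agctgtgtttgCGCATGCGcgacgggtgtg
NDUFA13 ETS, chr19:19516195-19516224, plus strand: taagtcacttccgcccgggaCCGGAAGTgt
COX8A ETS, chr11:63974590-63974619, plus strand: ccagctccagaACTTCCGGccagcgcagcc
COX5B ETS, chr2:97646014-97646043, plus strand: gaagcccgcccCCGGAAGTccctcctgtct
UQCRH ETS, chr1:46303640-46303669, plus strand: gagtgtgccgcACTTCCGGccagatcgccg
UQCRQ ETS, chr5:132866577-132866606, plus strand: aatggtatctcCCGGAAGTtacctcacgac
SDHD ETS, chr11:112086784-112086813, plus strand: accgcctctcgACTTCCGGttcacccagca

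NRF1 matches were in NDUFB4, NDUFS6, NDUFS7, SDHD, COX6A1, ATP5F1C, ATP5MC2, ATP5ME and ATP5PF, at 21 (ATP5F1C) to 219 (COX6A1) bases before the start. ETS matches were in NDUFA13, NDUFS1, SDHD, UQCRH, UQCRQ, UQCR11, COX5B, COX8A, ATP5MD and ATP5PD, at 10 (NDUFA13) to 160 (ATP5MD) bases before it. The 2 groups differed little from the other members in the data. The median ratio between highest and lowest pair was 1.48 for the 9 members with an NRF1 match and 1.41 for the 60 measured members without, and 1.38 for the 10 with an ETS match against 1.42 for the 59 without. The median ratio between high-share and low-share cells was 0.458 with an NRF1 match and 0.472 without, and 0.473 with an ETS match and 0.465 without. The members with a match include NDUFS1 at 0.948 and ATP5MC2 at 0.353, both near the ends of the latter scale.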

How the data were processed

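Per the labels' protocols, 1 pooled single-cell 3' gene expression library and 1 hashtag library were made. The deposited matrix holds raw UMI counts in whole numbers. Its header, per the file headers, names Cell Ranger 5.0.1, whereas version 2.1.1 and the build GRCh38 stand in the submitters' processing notes. The authors' gene annotation: not given in the sources used here. Coordinates are from GENCODE 29, to which all 110 members matched by identifier.

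Barcodes with 500 genes or more were kept, with no limit on the mitochondrial share, since that would cut on the quantity described. A cell belonged to the pair of its 2 highest hashtags among HTO2 to HTO9 if the second had 20 counts or more and 4 times the third. This leaves out barcodes with further hashtags, among them doublets across pairs; doublets within a pair remain and no doublet caller was run. Free RNA was not estimated. UMIs were summed per pair or per range of mitochondrial share. Counts of members use genes with 1000 UMIs or more and a ratio of 1.5. Median-ratio scaling divides by the median over genes of the ratio to their geometric mean. No p-value was computed. Columns of other samples numbered 0.

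The members, gene lists and the rule for named genes were chosen with earlier results of these data known. The rule took all mitochondrial genes, the 3 nuclear members with most UMIs per complex, the 5 largest and smallest ratios between pairs and between high-share and low-share cells, the complex IV isoforms with their partners, ATP5IF1, C15orf48, CYC1, CYCS, MALAT1 and NEAT1. The single-gene result of 1 gene under this rule is not reported here. Other genes named (core subunits, NDUFV2 and those that followed a hashtag) were chosen after their values were seen, as were median-ratio scaling, the total without MALAT1 and NEAT1, and the comparison by hashtag. The ratio calculation was run on simulated Poisson counts with known folds. That checks the calculation only, since the simulation holds no spread between cells or tumours beyond counting error. Tools were numpy 2.4.6, pandas 2.3.3, scipy 1.17.1 and matplotlib 3.10.9 under Python 3.11.15.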

Additional observations from a re-analysis of the deposited data

Results flagged for a closer look

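Barcodes outside the comparisons also held respiratory chain UMIs. The 673 barcodes under 500 genes had 71.0% of their gene UMIs from the 13 mitochondrial genes and 5657 UMIs of nuclear members, with a median of 1569 gene UMIs. The 1339 barcodes with 500 genes or more and no hashtag pair had 22.1% mitochondrial UMIs and 217373 UMIs of nuclear members, close to the 23.2% of the cells used. They are listed because they lie outside the cells compared, with no control barcodes to set them against.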

How the results depend on the processing

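With 1 pooled library no replicate could be left out, and depth limits members with few UMIs. No paired analysis was possible because the samples are 1 gene expression and 1 hashtag library of the same cells. The correlation over cells was -0.478 with 1000 genes or more, -0.457 at up to 50% mitochondrial share, -0.789 over all gene UMIs, -0.686 to -0.483 within pairs and, turned in sign, 0.0415 at up to 20%. Members differing between pairs numbered 0 at 2-fold, 17 with median-ratio scaling, 35 at up to 20% and 33 over all gene UMIs, against 26 of 82. The ratio of mitochondrial shares between pairs was 1.10 at up to 20%, 1.44 at up to 50%, 1.49 with 1000 genes or more, 1.54 with a hashtag ratio of 10 and 1.59 over median cells, against 1.55. The high-share to low-share ratio of nuclear members was 0.495 with 1000 genes or more, 0.215 over all gene UMIs, 0.470 after thinning, 0.534 with median-ratio scaling and 0.555 without MALAT1 and NEAT1, against 0.463. The nuclear ratio between pairs was 1.29 at up to 20%, 1.33 over all gene UMIs, 1.32 over median cells and 1.16 with median-ratio scaling, against 1.26. HTO4+HTO9 was the lowest nuclear pair in each alternative; the highest was HTO3+HTO7 in place of HTO4+HTO7 at up to 20%, at up to 50% and with 1000 genes or more. The causes were not tested. Members lower in high-share cells numbered 68 to 76 of 82 under other cells or totals, 78 of 82 at a smaller fold, 75 of 87 with 300 UMIs or more and 59 of 62 after thinning, against 74 of 82. Median-ratio scaling, the limit of 20% for the correlation, the totals without MALAT1 and NEAT1 and the leaving out of the 3 most abundant members were chosen after seeing the data.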
